A study of Mus musculus with 8 samples.

Results

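The sarcoplasmic reticulum (SR) calcium release and uptake genes described here are 10 of the genes on the Clariom S Mouse array: *Ryr1*, *Ryr3*, *Trdn*, *Casq1*, *Casq2*, *Srl*, *Atp2a1*, *Atp2a2*, *Sln* and *Pln*. They were chosen by function and matched by gene symbol, each had 1 probe set (the group of short probes that measures a gene), and the whole table holds 22206 probe sets. Gastrocnemius (GAS) muscles of male C57/Bl6j wild-type mice received, at about 10 weeks of age, a serotype 1 adeno-associated virus (AAV) that drives a short hairpin RNA (sh-RNA) from the U6 promoter. The AAV sh-RNA MYTHO was given to the right leg (MYTHO-KD, 4 arrays), and the AAV sh-RNA scrmb to the opposite leg (scramble, 4 arrays). Total RNA was taken 12 weeks later, at 22 weeks of age. Both groups therefore share the virus, the promoter and the mice, and the vector and the side of the body cannot be told apart. U6 is active in any transduced cell, so that knockdown was not restricted to muscle fibres by the promoter. The file gives the authors' average and standard deviation (SD) of the 4 arrays of each group on the log2 scale, where a difference of 1 is 2-fold. It does not give the single arrays, so that no member can be shown array by array.

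Calcium drives contraction. In a resting fibre it is stored in the SR, bound to calsequestrin, and it leaves through ryanodine receptors that sit opposite the voltage sensor of the surface membrane. Relaxation follows when SERCA pumps return calcium to the SR, and the small membrane peptides sarcolipin and phospholamban slow these pumps. Fast and slow fibres use different members of some of these families, SERCA1 being the fast form and SERCA2 the slow and cardiac form. Calsequestrin 1 is the main form of fast fibres, and calsequestrin 2 is a form of slow and cardiac muscle.

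After 12 weeks of MYTHO-KD, none of the 9 SR calcium genes that could be compared was called at 2-fold. Of all probe sets 1.12% were called, so that 0 of 9 is near that share. The skeletal release channel *Ryr1* and its partner *Trdn* stood at 76.3% and 77.4% of the scramble signal, past an unadjusted threshold of 0.05, and neither difference passed correction for the number of probe sets. In total muscle RNA, fewer cells of a type and less RNA per cell cannot be told apart. The main fast pump, *Atp2a1*, was at the top of the measurable range in both groups. The slow pump *Atp2a2* differed by 0.48 between the group averages, less than its SD within either group.

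The sh-RNA target, *D230025D16Rik* (*Mytho*), averaged 7.71 (SD 0.66) in MYTHO-KD and 10.02 (SD 0.37) in scramble. It fell by 2.31 on the log2 scale (95% interval -2.97 to -1.65), with an adjusted p = 0.0138 in limma. This checks the labels of the groups. The tissue label was checked with 9 skeletal muscle fibre markers such as *Acta1*, *Ckm* and *Myh4*, whose averages ran from 17.80 to 19.93 in MYTHO-KD and from 17.58 to 19.93 in scramble, up to the top of the scale. Of 7 cardiac muscle markers, 6 had averages between 4.67 and 6.72 in the groups, and *Myl4*, named after its value was seen, averaged 11.42 in both.

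Reference promoter sequences (RefSeq, GRCm38.p6, which is the mm10 build of the table) matched 5 of the 10 members. Those of *Ryr1*, lower in MYTHO-KD before correction, and of the calsequestrin pair, whose differences did not pass the test, are printed 5′ to 3′ on the strand of the gene. Each covers 250 bases before the transcription start and 50 after it. They lie at chr7:29125102-29125401 (minus strand), chr1:172219846-172220145 (minus strand) and chr3:102086165-102086464 (plus strand), and capitals mark E-boxes (CANNTG), the motif read by myogenic factors.
Ryr1: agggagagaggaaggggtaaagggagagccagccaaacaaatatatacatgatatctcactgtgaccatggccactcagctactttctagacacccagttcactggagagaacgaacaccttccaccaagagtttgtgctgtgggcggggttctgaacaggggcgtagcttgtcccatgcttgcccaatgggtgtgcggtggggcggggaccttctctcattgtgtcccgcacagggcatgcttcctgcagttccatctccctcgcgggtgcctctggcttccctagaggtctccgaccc
Casq1: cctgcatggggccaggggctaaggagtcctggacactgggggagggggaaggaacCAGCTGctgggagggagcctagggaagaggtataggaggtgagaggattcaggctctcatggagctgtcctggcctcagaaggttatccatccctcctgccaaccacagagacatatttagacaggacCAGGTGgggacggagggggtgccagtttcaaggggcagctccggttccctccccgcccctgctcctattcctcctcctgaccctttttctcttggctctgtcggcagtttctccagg
Casq2: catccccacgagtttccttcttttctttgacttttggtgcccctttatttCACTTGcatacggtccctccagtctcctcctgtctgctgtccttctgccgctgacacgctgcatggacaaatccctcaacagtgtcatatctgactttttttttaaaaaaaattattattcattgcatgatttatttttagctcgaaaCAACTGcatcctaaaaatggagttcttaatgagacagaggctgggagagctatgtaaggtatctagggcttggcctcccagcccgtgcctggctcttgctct

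The *Ryr1* window held 0 E-boxes and those of *Casq1* and *Casq2* held 2 each. Of the matched windows that are not printed, that of *Atp2a1* held 1 E-box and that of *Pln* held 2. On either strand, an E-box occurred in 72.3% of all 32851 promoters of this length. A MEF2 motif, by which MEF2 factors bind muscle genes, occurred in 3.19% of all promoters and in the *Casq2* window, at position -69 from the start. It was not in the *Ryr1*, *Casq1*, *Atp2a1* or *Pln* window. These matches describe the letters only, since binding was not measured.

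*Ryr1* encodes the calcium release channel of skeletal muscle and lies on chromosome 7 from 29003340 to 29125151 (mm10, minus strand). It averaged 16.34 (SD 0.25) in MYTHO-KD and 16.73 (SD 0.15) in scramble. The log2 fold change was -0.39 (95% interval -0.77 to -0.01), which leaves 76.3% of the scramble signal. It passed the unadjusted threshold of 0.05 narrowly and not the adjusted one (adjusted p = 0.408, limma). When all differences were centred on the median of the table, *Ryr1* no longer passed the unadjusted threshold, so that this call depended on a shift of 0.01.

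*Trdn* encodes triadin, the membrane protein that ties calsequestrin to the release channel, and lies on chromosome 10 from 33083483 to 33476709 (plus strand). It averaged 18.17 (SD 0.09) in MYTHO-KD and 18.54 (SD 0.14) in scramble. The difference of -0.37 (95% interval -0.70 to -0.04) leaves 77.4% of the scramble signal and is larger than either SD (adjusted p = 0.364, limma). It passed the unadjusted threshold here and in each of 6 other settings, and its adjusted p lay between 0.143 and 0.429 in those settings.

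*Ryr3*, a ryanodine receptor that adult limb muscle makes in small amounts, lies on chromosome 2 from 112631355 to 113217096 (minus strand). It averaged 5.09 (SD 0.29) in MYTHO-KD and 5.08 (SD 0.46) in scramble. The signal lay at the 17.3 percentile of all probe sets, low on the scale. The log2 fold change was 0.01 (95% interval -0.51 to 0.53).

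The calcium stores of the SR lumen gave differences that did not pass the test. *Casq1*, the main calcium-binding protein of fast SR, lies on chromosome 1 from 172209894 to 172219895 (minus strand). It averaged 18.71 (SD 0.27) in MYTHO-KD and 18.98 (SD 0.06) in scramble, a log2 fold change of -0.27 (95% interval -0.65 to 0.11; adjusted p = 0.587, limma). *Casq2*, its paralog of slow and cardiac muscle, lies on chromosome 3 from 102086415 to 102146514 (plus strand). It averaged 8.95 (SD 0.96) in MYTHO-KD and 8.62 (SD 0.36) in scramble, and its log2 fold change was 0.33 (95% interval -0.52 to 1.18; adjusted p = 0.811, limma). Whether the changes of the paralogs differ from each other was not tested, since this needs the values of single arrays. *Srl*, on chromosome 16 from 4480216 to 4541816 (minus strand), encodes sarcalumenin, a calcium-binding glycoprotein of the SR. It averaged 15.11 (SD 0.27) in MYTHO-KD and 15.31 (SD 0.19) in scramble, a log2 fold change of -0.20 (95% interval -0.60 to 0.20; adjusted p = 0.737, limma).

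**Figure D1:**
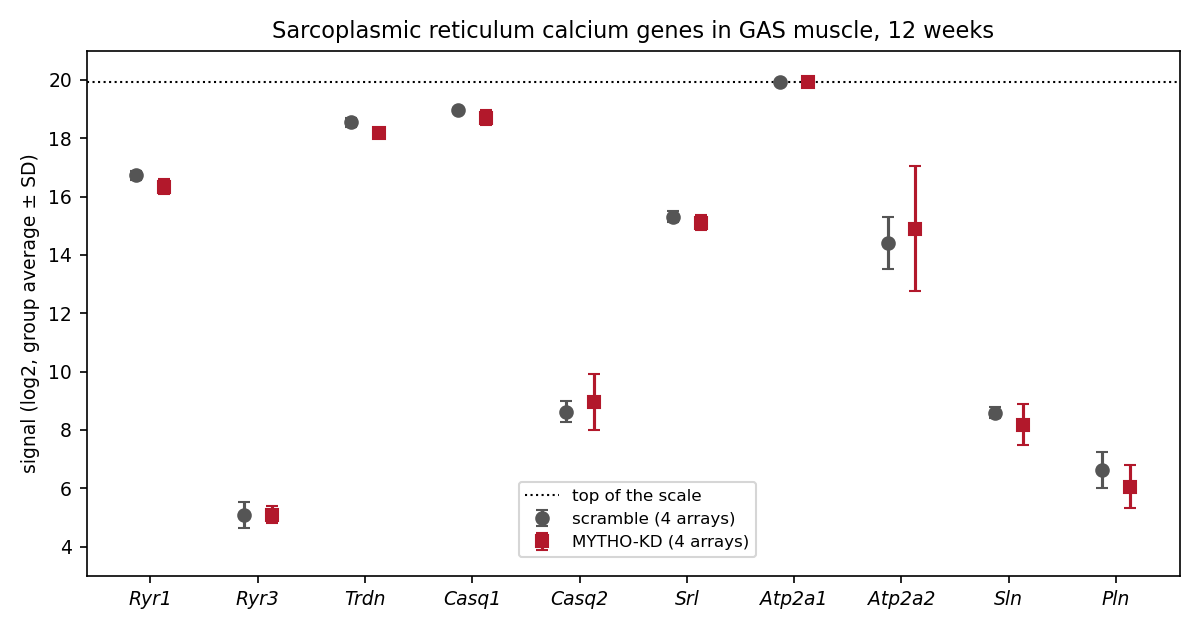
Authors' group average of the log2 signal (vertical axis) for each SR calcium gene (horizontal axis) in scramble (circles) and MYTHO-KD (squares) GAS muscles, 4 arrays each, with bars of 1 SD. *Atp2a1* sits on the top of the scale at 19.93 in both groups, and the widest bar is that of *Atp2a2* in MYTHO-KD, 2.14 to either side. Heights are compared only between the groups of a gene, not between genes.

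The pumps could be compared only in part. *Atp2a1*, which encodes SERCA1, the pump of fast fibres, lies on chromosome 7 from 126445858 to 126463108 (minus strand). Both averages were 19.93 and both SDs 0, which is the top of the scale. It was 1 of 15 probe sets in this state, so its signal gives only a lower bound in either group and no fold change. *Atp2a2*, which encodes SERCA2, the pump of slow fibres and heart, lies on chromosome 5 from 122442702 to 122502225 (minus strand). It averaged 14.90 (SD 2.14) in MYTHO-KD and 14.42 (SD 0.89) in scramble. The log2 fold change of 0.48 had a 95% interval from -1.35 to 2.31, so that the arrays allow anything from 39.4% to 494% of the scramble signal (adjusted p = 0.885, limma). Without moderation of the variance the interval widened to between -2.36 and 3.32.

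The peptides that slow the pump gave lower averages in MYTHO-KD that did not pass the test. *Sln* encodes sarcolipin and lies on chromosome 9 from 53850251 to 53853849 (plus strand). It averaged 8.18 (SD 0.70) in MYTHO-KD and 8.59 (SD 0.18) in scramble, a log2 fold change of -0.41 (95% interval -1.05 to 0.23; adjusted p = 0.640, limma). *Pln* encodes phospholamban and lies on chromosome 10 from 53337686 to 53345999 (plus strand). It averaged 6.05 (SD 0.73) in MYTHO-KD and 6.62 (SD 0.63) in scramble, low on the scale at the 42.15 percentile of all probe sets. Its log2 fold change of -0.57 (95% interval -1.38 to 0.24; adjusted p = 0.598, limma) was the lowest of the members. Each difference was smaller than the SD in MYTHO-KD.

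**Figure D2:**
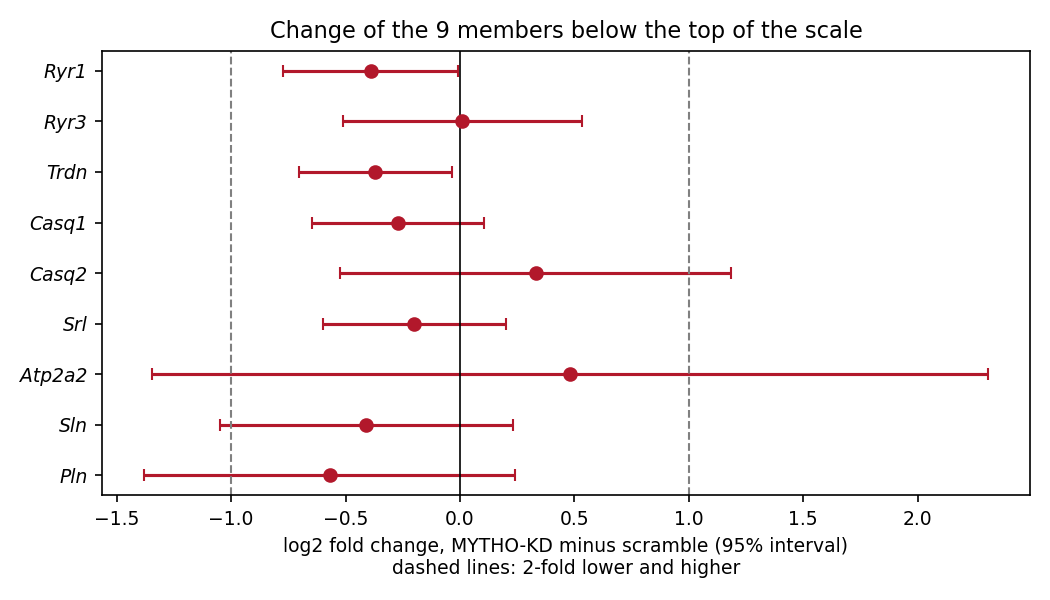
Log2 fold change of MYTHO-KD against scramble (horizontal axis) with its 95% interval from limma's moderated variance for the 9 SR calcium genes below the top of the scale. The intervals of *Ryr1*, *Ryr3*, *Trdn*, *Casq1* and *Srl* lie inside the dashed lines at 2-fold, and those of *Atp2a2*, *Casq2*, *Sln* and *Pln* cross a dashed line.

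Of the 9 members below the top of the scale, 6 were lower and 3 higher in MYTHO-KD. Their median log2 fold change was -0.27. Over all probe sets the median was -0.01, with 51.4% lower. With calls set at 2-fold and an unadjusted p under 0.05, 0 of the 9 were called, against 1.12% of all probe sets. Without a limit on the fold change, 2 members (*Ryr1* and *Trdn*) had an unadjusted p under 0.05 in the lower direction, against 5.52% of all probe sets, and 0 in the higher direction, against 6.48%. After adjustment over the whole table, limma's test passed 0 of the 9, against 0.275% of all probe sets. These counts are few and are given as a description of the list. For 5 members, *Ryr1*, *Ryr3*, *Trdn*, *Casq1* and *Srl*, the 95% interval lay within 2-fold in either direction, as it did for 89.2% of all probe sets. For the other 4 it did not, so that a 2-fold change of *Atp2a2*, *Casq2*, *Sln* or *Pln* in at least 1 direction lay within the interval that 4 arrays per group allow. *Trdn* and *Casq1* lay above 18, less than 2 below the top of the scale, and whether its end compressed their differences was not tested.

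The members differed widely in the spread between arrays. The SDs of *Ryr1*, *Trdn*, *Casq1* and *Srl* ran from 0.09 to 0.27 in MYTHO-KD and from 0.06 to 0.19 in scramble, at or below the median SD of all probe sets, 0.27 in each group. The SDs of *Atp2a2*, *Casq2*, *Pln* and *Sln* ran from 0.70 to 2.14 in MYTHO-KD, which put each at or above the 97.6 percentile of its group. In scramble they ran from 0.18 to 0.89. Their percentiles in scramble were 23.75 for *Sln*, 70.78 for *Casq2*, 97.17 for *Pln* and 99.67 for *Atp2a2*. Only *Pln* and *Atp2a2* were thus high in both groups. Only 16 of 22206 probe sets had a larger SD than *Atp2a2* in MYTHO-KD, and 70 had a larger one in scramble. An SD of 2.14 over 4 values means that the highest and the lowest array were at least 3.71 apart on the log2 scale, or 13.1-fold. For scramble the corresponding distance is at least 1.54, or 2.91-fold. The same bound for *Casq2* is 3.17-fold in MYTHO-KD and 1.54-fold in scramble.

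The markers of slow fibres had the same kind of spread. All 7 of them (*Myh7*, *Myl2*, *Myl3*, *Tnnt1*, *Tnni1*, *Tnnc1* and *Tpm3*) were above the 99th percentile of SD in MYTHO-KD, with SDs from 1.39 to 3.67. In scramble 5 of 7 were above it, and the SDs of all 7 ran from 0.70 to 1.43. Each was more variable in MYTHO-KD than in scramble, by 1.79 to 3.05 times, and the ratio for *Atp2a2* was 2.40. Over all probe sets, 48.1% were more variable in MYTHO-KD. The slow fibre markers had a median log2 fold change of -0.34, 6 of 7 lower, and none passed the unadjusted threshold. The lowest p values belonged to *Myl3*, a slow myosin light chain (0.54, standard error 0.572), and *Tnni1*, slow troponin I (-1.03, standard error 1.41). Whether the arrays with high *Atp2a2* signal were also those with high slow fibre markers was not tested, since single arrays are not in the table. Whether the SDs of the groups differ was not tested either.

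**Figure D3:**
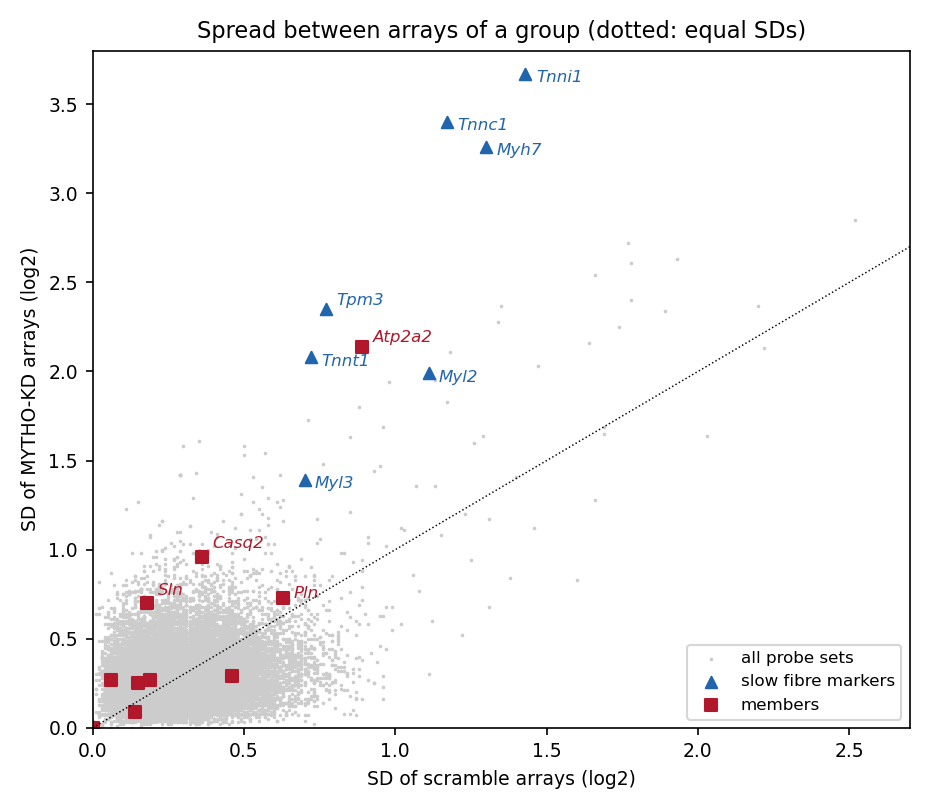
SD between the 4 arrays of a group (log2) in scramble (horizontal axis) and MYTHO-KD (vertical axis) for all probe sets (grey), the SR calcium genes (red squares) and the slow fibre markers (blue triangles), with a dotted line where the SDs are equal. *Atp2a2* lies among the slow fibre markers, far from the other SR calcium genes.

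Of the 26 other genes of the release complex, the triad and intracellular release channels, 2 were higher and 3 lower at an unadjusted p under 0.05. The shares over all probe sets were 6.48% and 5.52%. The median log2 fold change of the 26 was -0.04. *Calm3*, which encodes calmodulin, a calcium sensor that binds the ryanodine receptor, fell from 15.80 to 14.42 with SDs of 0.26 in scramble and 0.47 in MYTHO-KD (log2 fold change -1.38, 95% interval -1.90 to -0.86, adjusted p = 0.0392, limma). It was the 1 gene called at 2-fold among all 55 other calcium handling genes measured, a count near the 1.12% of all probe sets called in either direction (0.257% were called lower). *Sri*, which encodes sorcin, a calcium-binding protein that acts on the release channel, was higher by 0.81 (adjusted p = 0.154, limma). *Homer1*, a scaffold protein, was lower by a log2 fold change of -0.44 (adjusted p = 0.247, limma). The cardiac ryanodine receptor *Ryr2*, named after its values were seen, averaged 6.10 in MYTHO-KD and 6.75 in scramble, low on the scale (log2 fold change -0.65, adjusted p = 0.253, limma). *Tmem38b*, a potassium channel of the SR that balances charge during release, gave 0.71 (adjusted p = 0.249, limma). The voltage sensor *Cacna1s* gave 0.11 (adjusted p = 0.901, limma), and both were also named afterwards.

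Among 13 measured uptake regulators, other pumps, exchangers and buffers, 1 was higher and 1 lower at an unadjusted p under 0.05, with a median of -0.14. Over all probe sets 6.48% were higher and 5.52% lower at this threshold. *Slc8a1*, the sodium-calcium exchanger of the surface membrane, was higher by 0.74 (adjusted p = 0.191, limma). *Camk2a*, a calmodulin-dependent kinase, gave -0.58 (adjusted p = 0.268, limma), and *Atp2b3*, a pump of the surface membrane, gave -0.37 (adjusted p = 0.533, limma). Of 9 luminal calcium proteins and chaperones, all 9 differences were above 0, with a median of 0.30, against 46.9% of all probe sets higher. At an unadjusted p under 0.05, 3 of the 9 were higher, against 6.48% of all probe sets. These were *Canx* (calnexin, 0.78), *Rcn1* (reticulocalbin 1, 0.54) and *Pdia3* (a disulfide isomerase, 0.48), with adjusted p between 0.263 and 0.344 in limma's test. None of the 7 genes of store-operated calcium entry, which refills the SR from outside the cell, passed the unadjusted threshold, and their median was 0.11. *Stim2* (0.21), *Orai1* (0.21) and *Orai3* (0.18) had the lowest p values of these, and the calcium sensor *Stim1*, named after its value was seen, gave 0.11 (95% interval within 2-fold, as for all 7).

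**Figure D4:**
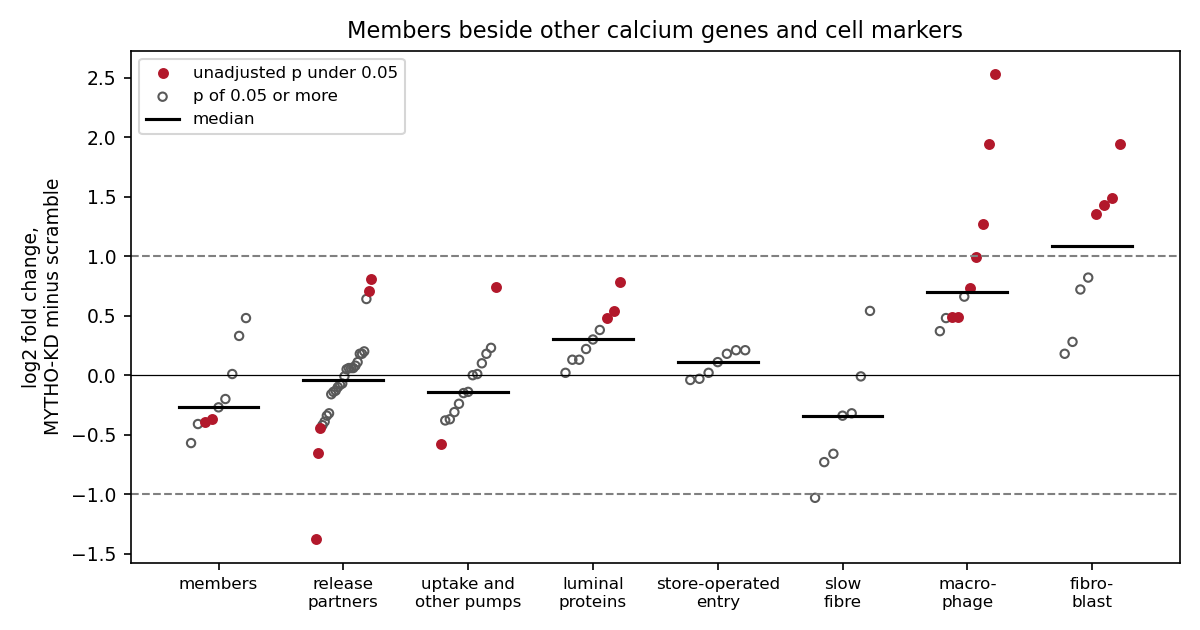
Log2 fold change of MYTHO-KD against scramble (vertical axis) for single genes of the SR calcium list, of 4 lists of other calcium handling genes, and of slow fibre, macrophage and fibroblast markers. Filled points passed the unadjusted threshold of 0.05, bars are medians, and dashed lines mark 2-fold. The median of the SR calcium genes is -0.27, that of the macrophage markers 0.695 and that of the fibroblast markers 1.085.

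Markers of other cells differed between the same muscles. Of 10 macrophage markers, 7 were higher in MYTHO-KD at an unadjusted p under 0.05, against 6.48% of all probe sets. At 2-fold 3 were called higher, against 0.86% of all probe sets. All 10 differences were above 0 (median 0.695), against 46.9% of all probe sets. Of 8 fibroblast markers, 4 were called higher at 2-fold, and all 8 differences were above 0 (median 1.085), beside the same shares. *Cd68* (2.53) and *Lyz2* (1.94), and *Bgn* (1.94) and *Lum* (1.49), led these lists. Of 7 endothelial markers, 2 were higher at an unadjusted p under 0.05, *Kdr* (0.75) and *Eng* (0.64), against 6.48% of all probe sets, and 0 were called at 2-fold. All 7 differences were above 0, with a median of 0.37, and none passed adjustment in limma's test. Of 8 markers of regenerating fibres, 4 were higher and 3 lower. *Mymk* (listed as *Tmem8c*, 1.77) and *Myh3* (1.27) were called higher, against 0.86% of all probe sets. Their adjusted p values were 0.0749 and 0.366 in limma's test. *Myh8*, which encodes a perinatal myosin, was at the top of the scale in both groups and gives no fold change. Why it read so high in scramble muscle was not tested. Of the 7 skeletal muscle fibre markers below the top of the scale, 3 were higher and 4 lower, with a median of -0.03. Among them *Mb* (myoglobin, 0.93) and *Myh1* (0.59) were higher at an unadjusted p under 0.05, against 6.48% of all probe sets. None was lower at that threshold. The part of other cells in the values of the SR calcium genes was not tested. Smooth muscle and cardiac markers, which may bear on *Atp2a2*, *Pln* and *Casq2*, had medians of 0.16 and 0.00. Their lowest p values belonged to *Myh11* (0.25) and *Actg2* (0.22), and to *Tnnt2* (0.78) and *Nppb* (-0.53). *Des*, on the smooth muscle list and named after its values were seen, averaged 17.78 in MYTHO-KD and 17.64 in scramble. These values lay near those of the skeletal muscle fibre markers, so that this list was not specific to smooth muscle. The 6 Schwann cell markers had a median of -0.06, led by *Prx* (-0.32) and *Pmp22* (0.28).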

How the data were processed

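GAS muscle RNA of 8 Clariom S Mouse arrays, 4 per group, was analysed. Groups were taken from the sample titles. According to the methods, the authors processed the arrays in the Transcriptome Analysis Console 4.0.1 with default parameters and SST-RMA normalization, and the submitters' processing notes name RMA and mm10. The deposited table (decimal commas) holds, for each of 22206 probe sets, the authors' group averages on the log2 scale (from 3.18 to 19.93) and group SDs on the same scale. Its 28 columns hold 0 columns of single arrays. Columns with the authors' own fold changes and p-values were not used. Whether the averages are plain means or Tukey biweight averages is not stated.

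A moderated test was computed from averages and SDs with limma 3.58.1 (squeezeVar) in R 4.3.3, with equal variances, 6 residual degrees of freedom, a prior SD of 0.284 and 5.85 prior degrees of freedom. It is two-sided, and p-values were adjusted (Benjamini-Hochberg) across the whole table. Calls needed 2-fold and an unadjusted p under 0.05. Intervals are 95%. The legs were treated as independent, although they are pairs. The p-values measure the spread between these muscles, and 4 arrays per group limit the precision. On simulated arrays for this comparison (22206 probe sets, 200 of them changed 1.5 or 2 on the log2 scale), 199 were recovered from plain means with 12 false calls. From biweight averages 198 were recovered with 37, and 7.29% of unchanged probe sets had an unadjusted p under 0.05 against 5.03%, so p-values may be somewhat low if the authors used the latter. Recovery of smaller differences, such as those of the members (log2 fold changes from -0.57 to 0.48), was not tested. The simulated arrays were independent, with equal SDs in both groups and no top of the scale. What pairing, unequal SDs and the top of the scale do to the p-values was therefore not tested. The brightest probe set stood for a gene with more than 1.

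Lists of calcium genes and markers held 127 entries, of which 124 were found, 3 by an older symbol (RefSeq, GRCm38.p6). The other 3 (*Strit1*, *Arln* and *Erln*, peptides of the pump) were not matched. Members, lists and tests were chosen with earlier results of these data known. Named genes are the members, the sh-RNA target, and the 3 (calcium lists) or 2 (marker lists) with the lowest p of each list; others are marked. No gene was named for a pattern like that of the members, because 2 averages hold no pattern across samples.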

Additional observations from a re-analysis of the deposited data

How the results depend on the processing

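The alternatives were no moderation, moderation with a trend on signal and robust fitting, unequal variances, a filter on probe sets under the 30th percentile of signal (5.715), probe sets marked as expressed in both groups, centring on the median difference, and other thresholds. Under the first 6, the median of the members lay between -0.32 and -0.26, and 0 members were called. Settings that change only the variance leave the differences as they are, and no member differed by 2-fold. Neither result could therefore move under those settings. The sh-RNA target stayed past the unadjusted threshold under all 6. Its adjusted p was 0.173 without moderation and 0.363 with unequal variances. The filter on signal removed *Ryr3*. The unadjusted call of *Ryr1* was lost with centring (log2 fold change -0.38), and no other member crossed this threshold in either direction. Counts moved with the threshold. At an unadjusted p under 0.05 and any fold, 2 members, 10 other calcium handling genes and 2664 probe sets were counted, against 0, 1 and 248 called. At 1.5-fold, 6 other calcium handling genes and 1287 probe sets were called, and 2-fold with an adjusted p under 0.05 left 57 probe sets. No paired analysis was possible because the table holds group averages, and for the same reason no array was left out in turn. Members had 1 probe set each, so that no other could be tried. The top of the scale limits *Atp2a1*, and the low signal of *Ryr3* limits its comparison.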
